A study of Homo sapiens with 2 samples.

Results

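The miR-23, miR-27 and miR-24 clusters are a pair of short genomic loci that each give a miR-23, a miR-27 and a miR-24 from 1 primary transcript. Their 9 listed products, of 1178 named entries in the table, were taken by exact name: miR-23a-3p, miR-27a-3p, miR-27a-5p and miR-24-2-5p from the 23a/27a/24-2 cluster, miR-23b-3p, miR-27b-3p and miR-27b-5p from the 23b/27b/24-1 cluster, miR-24-3p, which both clusters give, and miR-3074-5p, which is named from the strand opposite the miR-24-1 hairpin. All 9 were found. The libraries compared were of parental UM-SCC6, a human oral squamous cell carcinoma line, and of UM-SCC6-M, the same line after 3 rounds in which cells that had invaded across the matrix of a microfluidic chip were harvested and regrown. The labels name no drug or genetic change in either culture, and describe UM-SCC6-M as invasive with some mesenchymal traits. Each culture gave 1 library, so the differences have no replicate check, no test between the conditions was made, and bracketed 95% intervals cover counting error only.

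MicroRNAs (miRNAs) are short RNAs cut from hairpin precursors, and either arm of a hairpin, 5p or 3p, can give a mature product that pairs with messenger RNAs through its seed, bases 2 to 8, and lowers their output. Hairpins on 1 primary transcript are made together but are cut and kept separately, so their mature levels need not be equal. miR-27 is known for repressing the adipogenic factor PPARG, and miR-24 for repressing cell cycle regulators and, in keratinocytes, for control of the actin cytoskeleton during differentiation.

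The sequences show which reads can be told apart, and are given as RNA from RefSeq (GRCh38.p14), which held 9 of 9 members. The miR-23-3p and miR-27-3p products come first, with the seed in capitals, because the paralogs of each share their whole seed.
miR-23a-3p: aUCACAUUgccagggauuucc
miR-23b-3p: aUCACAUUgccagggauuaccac
miR-27a-3p: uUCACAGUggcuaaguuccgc
miR-27b-3p: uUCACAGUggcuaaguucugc
Counted from 1 at the 5′ end, miR-23a-3p and miR-23b-3p differ by U19A over their common 21 bases, and miR-27a-3p and miR-27b-3p by C19U. Reads that end before base 19 fit both names, and the sources used here do not say how such reads were assigned. The seeds of miR-23-3p and miR-27-3p differ from each other at 1 of 7 bases.

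The 5p products and the miR-24 products are shown next, again with the seed in capitals, because these do tell the loci apart or, for miR-24-3p, cannot.
miR-27a-5p: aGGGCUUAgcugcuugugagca
miR-27b-5p: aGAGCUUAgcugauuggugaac
miR-24-2-5p: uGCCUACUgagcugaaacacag
miR-24-1-5p: uGCCUACUgagcugauaucagu
miR-24-3p: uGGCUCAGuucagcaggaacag
miR-27a-5p and miR-27b-5p differ at 8 of 22 positions, 1 of them (G3A) inside the seed. miR-24-2-5p and miR-24-1-5p, the latter not a member but the only 5p product of the other miR-24 hairpin, differ at 6 of 22 positions and share the seed.

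In GRCh38 the 23a/27a/24-2 cluster spans 373 bases of the minus strand of chromosome 19, with MIR23A at 13836587 to 13836659, MIR27A at 13836440 to 13836517 and MIR24-2 at 13836287 to 13836359. GENCODE release 29 places all 3 hairpins in an exon of the noncoding gene AC020916.1. The 23b/27b/24-1 cluster lies on the plus strand of chromosome 9 and spans 887 bases with MIR3074 included. MIR23B (95085208 to 95085304) and MIR27B (95085445 to 95085541) are intronic in the protein-coding gene C9orf3, and MIR24-1 (95086021 to 95086088) overlaps exon 7 of 1 of its transcripts, which is annotated for nonsense-mediated decay. The hairpins of MIR27A and MIR27B follow, with both mature arms in capitals, because the arms of these 2 hairpins are compared below.
MIR27A: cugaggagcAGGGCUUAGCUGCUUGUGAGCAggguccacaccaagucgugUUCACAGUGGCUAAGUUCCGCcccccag
MIR27B: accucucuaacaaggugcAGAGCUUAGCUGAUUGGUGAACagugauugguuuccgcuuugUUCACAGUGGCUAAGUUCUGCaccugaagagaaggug

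The libraries held 7699490 recovered miRNA reads (UM-SCC6-M) and 8182958 (parental). Levels below are in normalized reads, meaning reads on the authors' own scale. A log2 ratio above 0 means a higher level in UM-SCC6-M. A level listed at 0 need not mean no reads, since the lowest values listed stood for 9 reads (UM-SCC6-M) and 8 (parental). Of the epithelial markers, miR-200b-3p was abundant (17481 and 12823 normalized reads in UM-SCC6-M and parental) and miR-31-5p moderate (93.9 and 98.5). In contrast, miR-200c-3p stood at 1.79 and 2.66 and miR-203a-3p at 2.75 and 0. The epithelial markers miR-205-5p and miR-141-3p had no entry. The summed fibroblast markers came to 25.9 and 22.6, and the 4 blood markers in the table were listed at 0 in both. The endothelial markers went opposite ways, with miR-126-3p at 520 and 968 and miR-126-5p at 30.6 and 17.8. The 2 muscle markers in the table summed to 111 and 337, nearly all of it miR-1-3p (109 and 333). The 23/27/24 clusters are known to be active in endothelium too, and the part of such cells in the values below was not tested.

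Over the 9 names, the clusters gave 1.37% (1.36 to 1.38) of all reads in UM-SCC6-M and 1.41% (1.40 to 1.41) in the parental line. Without miR-3074-5p, whose reads nearly equal those of miR-24-3p, the shares were 1.16% (1.15 to 1.17) and 1.12% (1.11 to 1.12). The order of the 2 libraries in these shares of total reads thus turns on that name. On the authors' scale the summed members were lower in UM-SCC6-M either way. Their log2 ratio was -0.28 with that name and -0.19 without it. Levels ran over more than 2 orders of magnitude. miR-27b-3p was the most abundant member in both libraries, at 4579 normalized reads in UM-SCC6-M and 5135 in the parental line, and ranked 27 and 25 among all entries. miR-24-3p was second in the parental library and miR-23a-3p second in UM-SCC6-M, so the order of the main products was not the same in the 2 cultures. The least abundant was miR-27b-5p, at 26.4 and 22.99 normalized reads, the 1 member below 50 normalized reads in both libraries.

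**Figure D1:**
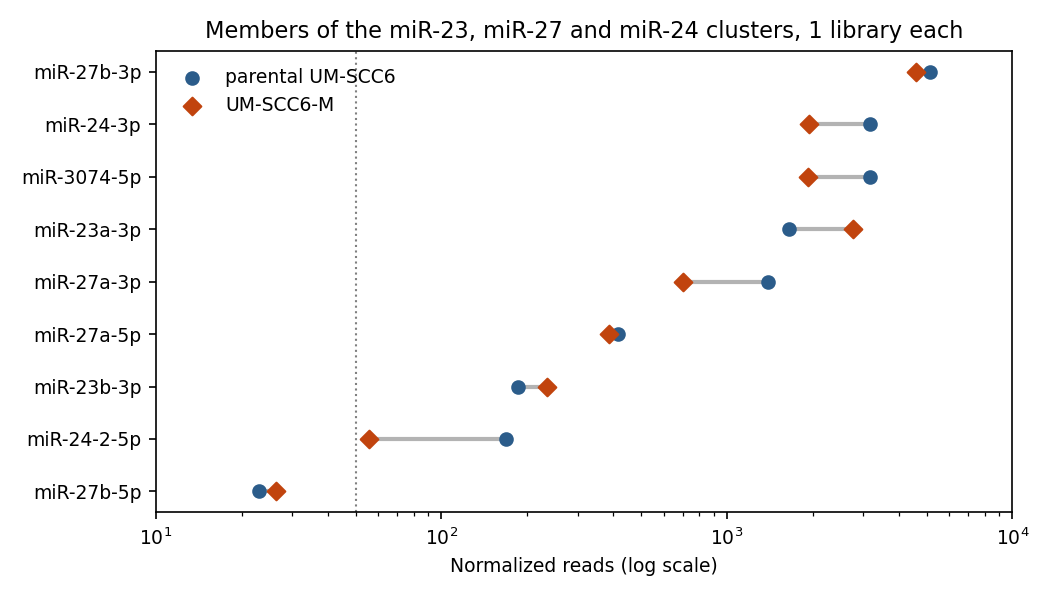
Normalized reads (log axis) of the 9 members in parental UM-SCC6 (circles) and UM-SCC6-M (diamonds), 1 library each, joined by a grey line. The dotted line marks the floor of 50 normalized reads. miR-23a-3p lay to the right in UM-SCC6-M (2753 against 1647), whereas miR-24-3p, miR-27a-3p and miR-24-2-5p lay to the left.

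Differences between the libraries went both ways within the clusters: miR-23 was higher in UM-SCC6-M, miR-24 and miR-27a-3p were lower, and miR-27b was nearly level. In 8 members the higher library reached 50 normalized reads, the floor used here. Of these 8, 1 was at least 2-fold apart (12.5%), against 20.1% of the 179 entries at that floor. That member was lower in UM-SCC6-M, as were 12.8% of the 179, and no member was 2-fold higher, against 7.26%. At 1.5-fold, 5 of the 8 were apart (62.5%), 4 lower and 1 higher, against 43.6% of the 179. Those 5 include both miR-24-3p and miR-3074-5p, which had nearly the same reads, and without miR-3074-5p the count was 4 of 7. The median log2 ratio of the 8 was -0.44, and that of the 7 without miR-3074-5p was -0.17. Over the 179 entries the median was 0.04, with quartiles of -0.61 and 0.41.

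miR-23a-3p had 2753 normalized reads in UM-SCC6-M and 1647 in the parental line, on 23057 and 12396 reads. It was 1.67-fold higher in UM-SCC6-M (1.64 to 1.71), a log2 ratio of 0.74. Its paralog miR-23b-3p had 234 and 185 normalized reads on 1956 and 1393 reads, and was 1.26-fold higher (1.18 to 1.35). Both paralogs thus lay on the same side, and the summed miR-23-3p was at 2987 against 1832 normalized reads, a log2 ratio of 0.70 (0.67 to 0.73). Under the other scalings tried, the miR-23-3p ratio lay between 0.78 and 0.95.

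miR-27a-3p had 700.6 normalized reads in UM-SCC6-M and 1391 in the parental line, on 5867 and 10466 reads. It was 1.99-fold lower (1.92 to 2.05), so it lay just outside the 2-fold rule while its counting interval crossed it. The seed-sharing miR-27b-3p, at 38351 and 38643 reads, was 1.12-fold lower (1.11 to 1.14) under the authors' scaling. With total reads as the scale, its log2 ratio went from -0.17 to 0.08, so no direction is given for it. Because miR-27b-3p held most miR-27-3p reads, the sum of the paralogs moved less than miR-27a-3p alone, at 5280 normalized reads in UM-SCC6-M and 6526 in the parental line. The log2 ratio of that sum was -0.31 (-0.06 under total scaling).

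miR-24-3p, which both clusters encode, had 1934 normalized reads in UM-SCC6-M and 3164 in the parental line, on 16199 and 23812 reads. It was 1.64-fold lower (1.60 to 1.67), a log2 ratio of -0.71, and -0.47 under total scaling. Since MIR24-1 and MIR24-2 give the same 22 bases, its reads do not tell which cluster they came from. The 5p products do differ, and almost all of their reads carried the MIR24-2 name. miR-24-2-5p held 97.7% of the miR-24 5p reads in UM-SCC6-M (95.9 to 98.8) and 98.3% in the parental library (97.4 to 98.9), with 465 and 1266 reads against 11 and 22 for miR-24-1-5p. These 5p shares do not give the source of miR-24-3p. For miR-27 in UM-SCC6-M, miR-27a held 93.6% of the 5p reads but 13.3% of the 3p reads.

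miR-24-2-5p was the member past the 2-fold rule. It had 55.5 normalized reads in UM-SCC6-M and 168 in the parental line, and was 3.03-fold lower (2.72 to 3.38), with a log2 ratio of -1.60 and of -1.36 under total scaling. In the authors' deposited table, which rests on the same 2 libraries, its log2 fold change is -1.5993. It is the 1 of 9 members marked there as selected, against 44 of all 1213 entries. The smallest absolute log2 fold change among marked entries is 1.0097. The deposited q-values compare these 2 libraries and not the 2 conditions. Relative to miR-24-3p, miR-24-2-5p went from 5.05% of the reads of the 2 products in the parental library (4.78 to 5.33) to 2.79% in UM-SCC6-M (2.55 to 3.05), a change that does not depend on the scaling.

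miR-3074-5p had 1916 and 3158 normalized reads and was 1.65-fold lower in UM-SCC6-M (1.62 to 1.68), close to miR-24-3p. Its 16047 reads in UM-SCC6-M were 152 fewer than those of miR-24-3p, and its 23766 parental reads 46 fewer, which is 99.1% and 99.8% of the miR-24-3p reads. Set beside the reverse complement of miR-24-3p, miR-3074-5p has a common run of 20 bases, in capitals here.
miR-24-3p, reverse complement: cuGUUCCUGCUGAACUGAGCCA
miR-3074-5p: GUUCCUGCUGAACUGAGCCAg
The table has no strand for its reads, so whether the 2 names are separate measurements cannot be told from it. Counts and sums over the members are therefore given with and without miR-3074-5p.

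**Figure D2:**
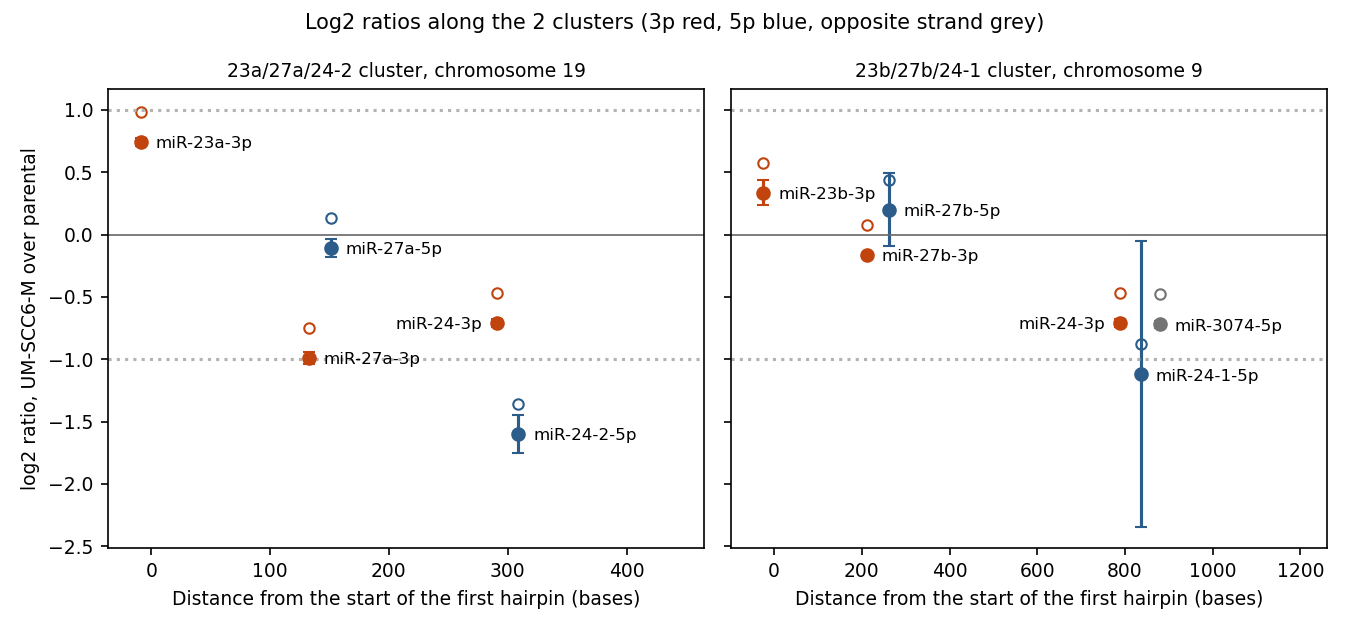
Log2 ratio of UM-SCC6-M over parental (vertical) for each product against the distance of its hairpin from the first hairpin of the cluster in bases (horizontal, with products of 1 hairpin set slightly apart). Filled points are the authors' scaling with 95% counting intervals, open points the scaling to total reads, and dotted lines 2-fold. In the 23a cluster the values ran from 0.74 for miR-23a-3p to -1.60 for miR-24-2-5p, whereas those of miR-23b-3p, miR-27b-3p and miR-27b-5p lay between -0.17 and 0.34. miR-24-3p is drawn in both panels, and miR-24-1-5p, on 11 and 22 reads, has a wide interval.

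The sums of the 2 clusters lay within 1.5-fold between the libraries, and their composition differed. The 4 members that only the 23a/27a/24-2 cluster gives summed to 3896 normalized reads in UM-SCC6-M and 3622 in the parental line, a log2 ratio of 0.11 (0.08 to 0.13) that came to 0.35 under total scaling. Those of the 23b/27b/24-1 cluster summed to 4839 and 5343, a log2 ratio of -0.14 (-0.16 to -0.12) that turned to 0.10 under total scaling. Within each library, where scaling has no part, the 23a cluster held 44.6% of the reads of the 2 sums in UM-SCC6-M (44.2 to 45.0) and 40.4% in the parental library (40.0 to 40.8).

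The balance between neighbours on 1 transcript differed between the libraries, and more so in the 23a cluster. miR-23a-3p and miR-27a-3p were nearly even in the parental library, where miR-23a-3p was 1.18 times miR-27a-3p by reads. In UM-SCC6-M it was 3.93 times miR-27a-3p. On the log2 scale this balance was 1.73 higher in UM-SCC6-M (1.67 to 1.79). The balance of miR-23b-3p to miR-27b-3p was also higher, by 0.50 (0.40 to 0.60), with miR-27b-3p at 27.7 times miR-23b-3p in the parental library and 19.6 times in UM-SCC6-M. The change in the 23a cluster exceeded that in the 23b cluster by 1.23, and the counting intervals of these changes did not overlap. Over its 4 members the 23a cluster spanned 2.34 in log2 ratio, with miR-24-2-5p lowest, against 0.50 for the 3 members of the 23b cluster. The miR-24 5p product of the 23b cluster is not among those 3. With the scarcely read miR-23a-5p, miR-23b-5p and miR-24-1-5p included, at 11 to 35 reads each per library, the ranges were 2.34 and 2.16, so the wider span of the 23a cluster holds for the more abundant products.

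Which paralog dominated depended on the product. For miR-23-3p it was miR-23a, with 92.2% of the reads in UM-SCC6-M (91.8 to 92.5) and 89.9% in the parental library (89.4 to 90.4). For miR-27-3p it was miR-27b, since miR-27a-3p held 13.3% in UM-SCC6-M (13.0 to 13.6) and 21.3% in the parental library (21.0 to 21.7). For the 5p arm of the same hairpins it was miR-27a again, with 93.6% (92.7 to 94.4) and 94.8% (93.9 to 95.5). The miR-23a to miR-23b balance was higher in UM-SCC6-M by 0.41 on the log2 scale (0.30 to 0.51). The miR-27a to miR-27b balance of the 3p products went the other way, by -0.82 (-0.87 to -0.77). That of the 5p products differed by -0.30, with an interval of -0.61 to -0.0025 that nearly reached 0.

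The arm balance of both miR-27 hairpins lay more toward 5p in UM-SCC6-M, and the difference was larger for MIR27A. From MIR27A, the 5p arm gave 23.02% of the reads of both arms in the parental library (22.3 to 23.7) and 35.5% in UM-SCC6-M (34.6 to 36.5), so the 5p to 3p balance was 0.88 higher (0.80 to 0.97). The level of miR-27a-5p itself was at 386 and 416 normalized reads, with a log2 ratio of -0.11 that turned to 0.14 under total scaling. From MIR27B, the 5p arm gave 0.573% of the reads in UM-SCC6-M (0.5001 to 0.653) and 0.446% in the parental library (0.382 to 0.517). For this hairpin the balance was 0.36 higher (0.07 to 0.66). miR-27b-5p had a fold of 1.15 with an interval of 0.937 to 1.41, so its own level differed by less than counting error under the authors' scaling. Under total scaling its log2 ratio was 0.44 (0.15 to 0.74), so this depends on the scaling and no direction is given. The change in MIR27A exceeded that in MIR27B by 0.52, and the counting intervals of these changes did not overlap.

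The 5p arms of the miR-23 hairpins were barely read. miR-23a-5p had 16 reads in UM-SCC6-M and 15 in the parental library, 0.0693% and 0.121% of the reads of its hairpin. miR-23b-5p had 35 and 15 reads, 1.76% and 1.07% of its hairpin. The intervals of both arm balances included no change (-1.91 to 0.32 for miR-23a and -0.18 to 1.72 for miR-23b).

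**Figure D3:**
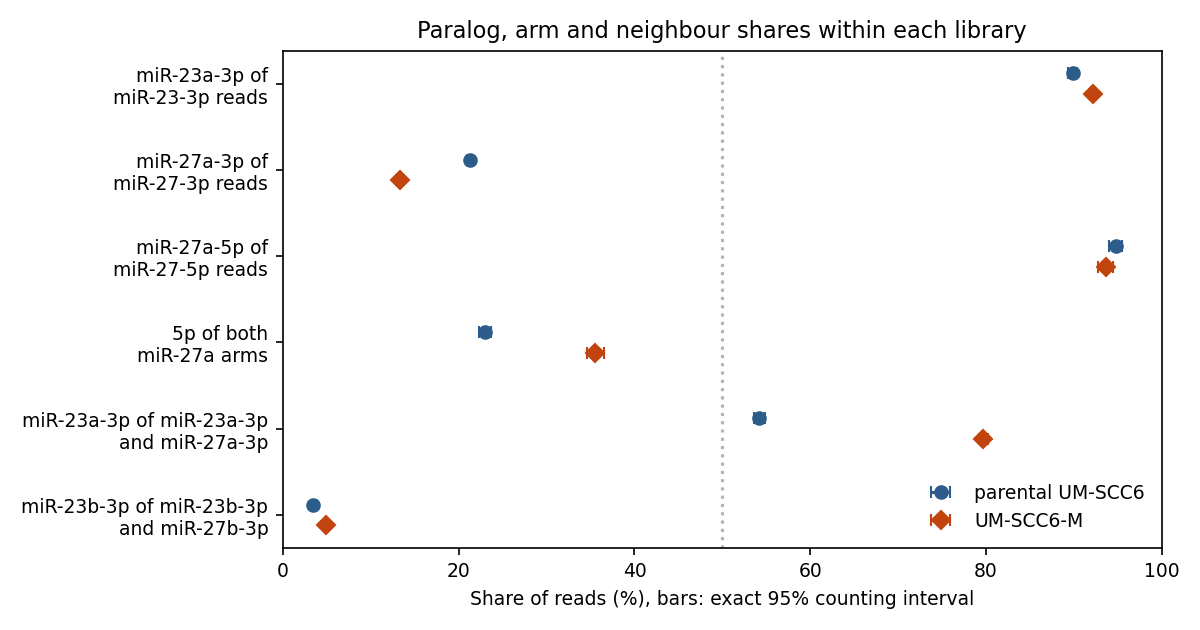
Share of reads in percent (horizontal) that the first-named product held of the products named at the left, in parental UM-SCC6 (circles) and UM-SCC6-M (diamonds), with exact 95% counting intervals. miR-27a-3p was the minor paralog of the 3p reads (21.3% and 13.3%) while miR-27a-5p was the major one of the 5p reads (94.8% and 93.6%), and the share of miR-23a-3p against miR-27a-3p went from 54.2% to 79.7%.

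Set against the rest of the table, these differences were neither alone nor the widest. Of 20 other co-transcribed clusters listed, 18 had at least 2 main arms at 50 normalized reads, with a median range of 0.60 in log2 ratio. The range of 1.73 between miR-23a-3p and miR-27a-3p was exceeded by 3 of the 18, and the range of 0.50 between miR-23b-3p and miR-27b-3p by 12. The widest were the clusters of miR-183 with miR-182 (2.42) and miR-29a with miR-29b (2.37), and the narrowest those of miR-15b with miR-16 (0.02) and miR-221 with miR-222 (0.21). Among 30 hairpins with both arms at the floor, the change of 0.88 in the arm balance of miR-27a ranked 14. The median absolute change was 0.76. Those 30 include both miR-423 and miR-3184, which lie on opposite strands and had nearly the same reads. There were 12 pairs of entries that share a seed and differ by at most 1 base over their common length. Among these the miR-27 pair ranked 3 (0.82) and the miR-23 pair 6 (0.41), with a median of 0.36. The pairs are not all separate, since entries such as let-7a-5p are in more than 1.

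**Figure D4:**
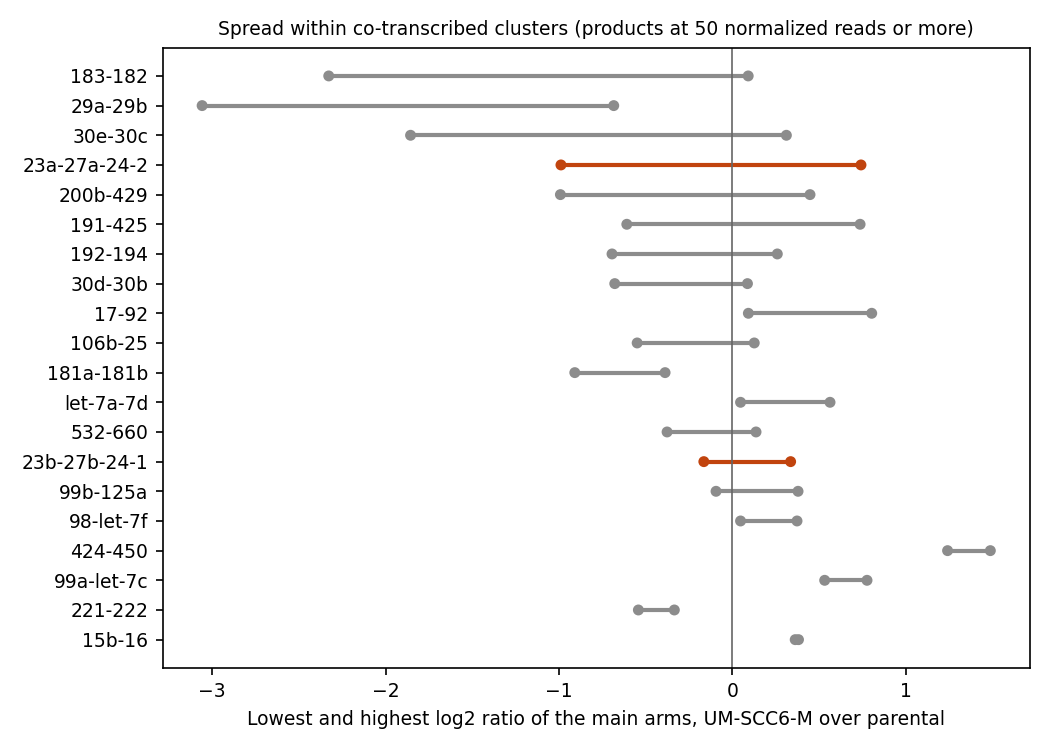
Lowest and highest log2 ratio (horizontal, UM-SCC6-M over parental) among the main arms of each co-transcribed cluster (vertical), sorted by the distance between them. The 23a cluster (red, -0.99 to 0.74) is among the wide ones and the 23b cluster (red, -0.17 to 0.34) near the middle. miR-24-3p is left out of both because its reads cannot be assigned, whereas products of the other clusters with further copies elsewhere were kept.

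The entries nearest in log2 ratio to each summed family, among non-members at the floor, were miR-574-5p (0.70) and miR-130b-5p (0.68) for miR-23-3p, miR-502-3p (-0.31) and miR-128-3p (-0.29) for miR-27-3p, and miR-192-5p (-0.69) and miR-29a-3p (-0.68) for miR-24-3p. Likeness here is a small difference between 2 ratios over 2 libraries. miR-128-3p was also named by rule because its seed overlaps that of miR-27, with 6 bases in a common run, capitals again marking bases 2 to 8.
miR-128-3p: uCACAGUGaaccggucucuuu
It stood at 1348 normalized reads in UM-SCC6-M and 1649 in the parental line, a log2 ratio of -0.29 that came to -0.05 under total scaling.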

How the data were processed

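Per the labels' protocols, adapters were ligated to small RNA from 3 µg of input per culture, and gel fragments of 140 to 160 bp were sequenced. Bowtie is named without a version, per the submitters' processing notes. Build, miRNA database, counting and scaling tool are not given in the sources used here. As for units, the authors deposited 1 table with a scaled read signal per library, and a log2 fold change, p-value and q-value that compare the 2 libraries, per the file headers. Dividing each signal by the worth of 1 read (0.119 in UM-SCC6-M, 0.133 in the parental column) gave reads that were whole within 0.00023. Log2 ratios used 0.5 added reads. Intervals of shares and ratios are exact binomial (Clopper-Pearson) and those of balances exact conditional odds ratios, at 95%, and they cover counting error only since PCR copies are not independent molecules. A difference was called at 2-fold where the higher library reached 50 normalized reads.

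The members and lists were chosen with earlier results of these data known. Named were the 9 members, other products of their hairpins, entries sharing or overlapping their seeds, the 2 entries nearest in ratio to each family and the 2 widest and 2 narrowest other clusters. Opposite-strand pairs overlapped by at least 15 bases. The script was tested on simulated data. Python 3.11.15, numpy 2.4.6, pandas 2.3.3, scipy 1.17.1 and matplotlib 3.10.9 were used.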

Additional observations from a re-analysis of the deposited data

How the results depend on the processing

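The count of members at least 2-fold apart was 1 under the 3 other scalings, with floors of 10 or no floor, with 5 reads added, with the counting interval required to lie beyond 2-fold, and without miR-3074-5p. It was 0 with a floor of 200 normalized reads, 5 at a threshold of 1.5-fold and 0 at 4-fold. The 8 balances do not depend on the scaling, and 16 of their 17 recomputed values (5 reads added, the deposited log2 fold changes, or 3p products only) lay inside the main interval. The exception was the balance of the cluster sums, 0.33 with the 3p products of miR-23 and miR-27 only against 0.25. It was the only alternative that used other products. The rest used the same reads, so they could move a balance only slightly. Of 36 recomputed member log2 ratios 2 changed sign, both under scaling to total reads, which moves every ratio up by 0.24. These were miR-27a-5p (0.14) and miR-27b-3p (0.08). No paired analysis was possible because each culture gave 1 library. Spread between cultures was not measured, and differences the size of those in products with few reads, such as miR-24-1-5p, are limited by depth.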

Other observations

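Near-equal reads for names on opposite strands were not particular to miR-24-3p and miR-3074-5p. Among entries with at least 50 normalized reads, 5 such pairs were found with the RefSeq positions. Both names of each pair were kept among the 179 entries at the floor. In the miR-423-5p and miR-3184-3p pair the reads were 12390 and 12388 in UM-SCC6-M and 7619 for both in the parental library. miR-374c-3p and miR-374b-5p had 12894 and 12905 reads in UM-SCC6-M, and 3510 and 3512 in the parental library. For miR-423-3p and miR-3184-5p the counts were 27355 and 27261, then 19143 and 19051. The widest gap was that of miR-103b and miR-103a-3p, where the smaller count was 92.3% of the larger in UM-SCC6-M and 92.5% in the parental library. On the other arm of the MIR24-1 locus, below that floor, miR-24-1-5p had 11 reads in UM-SCC6-M and 22 in the parental library, and the opposite-strand miR-3074-3p had 10 in each.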
